A study of Mus musculus with 28 samples.

Results

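Neurexins and neuroligins are the adhesion proteins that join the sending and the receiving side of a synapse. Values of Nrxn2 and Nrxn3, which encode neurexins, and of Nlgn1, Nlgn2 and Nlgn3, which encode neuroligins, were read from a table of exonic counts and a table of intronic counts of 28 single mouse brain cells. These are 5 of 23453 genes in the exonic table and 5 of 20422 in the intronic table. The genes were chosen by family, with 1 measured value known in advance: Nrxn3 has the largest intronic sum of the protein-coding genes, so that rank is a description here and nothing is supported with it.

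A neurexin sits mainly in the presynaptic membrane and binds, across the cleft, a neuroligin or another partner in the postsynaptic membrane. Neurexin genes are long, start from several promoters that give long and short proteins, and are spliced in many ways. Nlgn1 protein is known chiefly from excitatory synapses, Nlgn2 protein from inhibitory synapses and Nlgn3 protein from both. Members of both families are also found in astrocytes, which touch synapses with fine processes.

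The labels name 12 neurons and 8 astrocytes of strain C57/BL6 from primary culture of cortex, and 8 interneurons of strain C57/BL6/N taken from acute slices of prefrontal cortex. All were collected with a pipette, a patch clamp pipette for the interneurons. No cell is labelled with a treatment or an altered gene, and the labels do not say which animal or culture a cell came from. The protocol text for the cultured cells gives a male mouse of 3 months. It then describes a brain fixed by perfusion and cut into sections, which does not match the label of primary culture. The paper on these data describes its dispersed mouse cultures as embryonic and of both sexes. It gives the male of 3 months for its brain sections, and does not describe the culture of these RNA cells separately. The cultured cells and the slice cells also differed in library kit and in sequencer, so origin, library and instrument cannot be told apart.

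No column code appears in any label, so 0 of 28 columns were assigned to a cell type. Values are given by runs of codes: BRP528 to BRP543 (12 columns), BRP564 to BRP572 (8 columns, with no code 565) and F (8 columns). These runs have the sizes of the labelled neurons, astrocytes and interneurons, and marker genes differ among them, but neither fact labels a column. No test was made between the runs, and they are described by their lowest, median and highest cell. Levels are given as CPM, the counts in 1000000 of the cell's own exonic or own intronic total, so an exonic and an intronic level are on different scales. The 7 listed neuron markers summed to 4898 to 9982 exonic CPM in BRP528 to BRP543, to 299 to 801 in BRP564 to BRP572 and to 1608 to 17800.0 in F. The 9 astrocyte markers summed to 208 to 2463, to 2674 to 7155 and to 1.19 to 4363, with Aldh1l1 and S100b at 0 throughout F. The 5 markers of GABAergic neurons summed to 0.0572 to 2734, to 3.54 to 54.8 and to 564 to 11672. The 4 markers of glutamatergic neurons summed to 0.0498 to 1075, to 0 to 133 and to 0 to 4.92. BRP528 held both the GABAergic 2734 and the glutamatergic 0.0498. The 6 oligodendrocyte lineage markers summed to 0.517 to 1261, to 563 to 1311 and to 0 to 3387, with Mog at 0 in both BRP runs. F7 held the highest astrocyte and oligodendrocyte lineage sums of F, with 1180 and 3.64 the next highest. The 5 microglia markers summed to 0 to 46.6, to 0.612 to 16.4 and to 0.0674 to 2093, where F16 held 2093 and the next F column 78.6. Markers of several cell types were therefore present within each run, and their part in the values below was not tested.

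Depth was 838343 to 26770944 exonic counts and 831965 to 11098985 intronic counts per cell. The F columns were shallower in exons (median 4963188, against 21155595 in BRP528 to BRP543 and 16342310 in BRP564 to BRP572), and their median share of intronic counts was higher, at 50.4% against 15.7% and 8.75%. Counting error is the only error that a single cell allows to be stated, and a count of 0 allows up to 3 counts, a limit that covers counting error only. Columns F11 and F12 stood apart: their exonic profiles correlated at 0.954 and their intronic profiles at 0.961 (Pearson's r across genes of log2(CPM + 1)), with a chi-square per degree of freedom of 17.6 and 13.1, while the next lowest of the 378 exonic pairs was at 219. They differed by more than sampling noise and were kept as separate columns, and medians of the members in the F columns are given with and without F12. Without F12 the median F depth was 5535888 exonic counts and the median intronic share 52.5%.

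On the assembly GRCm38 (mm10), Nrxn3 spans chromosome 12 from 88722876 to 90334935 on the plus strand, a length of 1612 kb of which 1599 kb are intron and 12.6 kb exon. Nlgn1 spans chromosome 3 from 25426215 to 26332460 on the minus strand, with 893 kb of intron and 13.4 kb of exon. Nrxn2 is shorter, on chromosome 19 from 6418731 to 6544169 on the plus strand, with 112 kb of intron and 13.8 kb of exon. Nlgn2 (chromosome 11, 69823122 to 69837784, minus strand) has 8.88 kb of intron, and Nlgn3 (chromosome X, 101299168 to 101325963, plus strand) has 17.5 kb. Exon length (5.79 to 13.8 kb) thus differed far less among the 5 genes than intron length (8.88 to 1599 kb).

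Exonic counts of the neurexins were high in BRP528 to BRP543 and low in BRP564 to BRP572. For Nrxn2, the lowest, median and highest cells held 237, 841 and 1186 exonic CPM in BRP528 to BRP543, and 66.7, 150 and 230 in BRP564 to BRP572. Its F columns held 0, 2.18 and 440 (median 2.51 without F12). All 8 cells of BRP564 to BRP572 lay below all 12 cells of BRP528 to BRP543, with the closest pair at 230 and 237. This gap of Nrxn2 was not kept when counts were scaled to the joint exonic and intronic total of the cell, where 1 cell of each run crossed (217 and 203). In F, Nrxn2 was split: F6 held 440, F16 held 373 and F1 held 132, while the other 5 columns held 0 to 2.51.

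Nrxn3 exons showed a wider gap between the BRP runs and another pattern in F. The lowest, median and highest cells held 133, 907 and 1826 exonic CPM in BRP528 to BRP543. In BRP564 to BRP572 they held 0, 11.7 and 50.9, and all 8 again lay below all 12. The cell at 0 was BRP569, where a count of 0 allows up to 0.231 CPM. The F columns held 0.345, 679 and 4544 (median 489 without F12), with 6 columns between 309 and 4544 and with F7 and F16 at 0.345 and 1.19, which were 3 counts and 1 count. Nrxn2 and Nrxn3 were thus 2 of 5 members whose exonic levels did not overlap between the BRP runs in this direction, beside 2.18% of the 18909 genes with an exonic count in these 20 columns, and Nrxn3 alone kept this under all 4 other scalings tried.

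**Figure D1:**
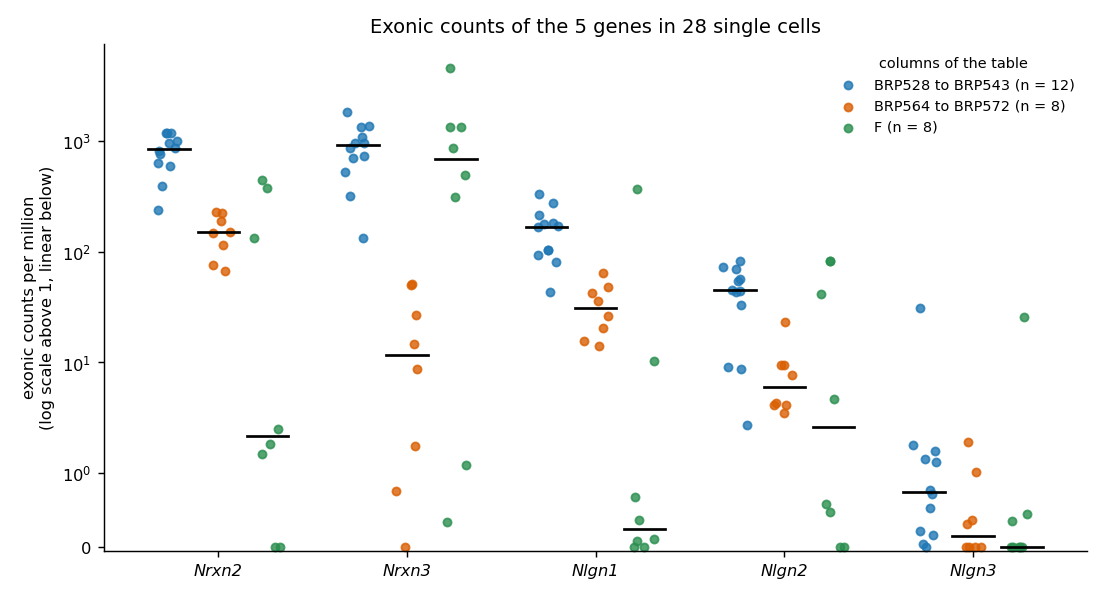
Exonic CPM (vertical axis, logarithmic above 1 and linear below) of the 5 genes, 1 point per cell, coloured by run of column codes, with a black bar at the median of the run. At this scaling Nrxn2 and Nrxn3 do not overlap between the 2 BRP runs, with all 8 cells of BRP564 to BRP572 at the lower side, and the F columns of most genes spread from 0 or near 0 to over 80.

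Set against each other per kb of exon, the neurexins changed place between runs. Nrxn3 made up 27.0% to 70.9% of the summed per kb level of Nrxn2 and Nrxn3 in BRP528 to BRP543 (median 50.3%), and was the larger in 6 of 12 cells. That count depends on the length used. All annotated exon is 13.8 kb in Nrxn2 and 12.6 kb in Nrxn3, while their longest transcripts are 6.67 and 7.92 kb. The cells were not recounted with the longest transcript. In BRP564 to BRP572 its share was 0% to 45.5% (median 7.13%), and Nrxn2 was the larger in all 8 cells. In F its share ran from 0.349% to 100% with a median of 90.0% (80.2% without F12), and it was the larger in 5 of 8 columns. F2, F11, F12 and F24 held 99.8% to 100% Nrxn3 and F1 held 80.2%, while F6 held 43.4%, F7 (16 counts of both genes) 20.2% and F16 0.349%.

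Among the neuroligins, Nlgn1 had the highest CPM in the BRP columns. Per kb of exon, Nlgn2 exceeded it in BRP539, BRP542, BRP543 and BRP571. The per kb levels of Nlgn1 and Nlgn2 were close in BRP539 (7.75 and 7.87 CPM) and in BRP543 (6.97 and 7.54). The lowest, median and highest cells of Nlgn1 held 43.6, 168 and 334 exonic CPM in BRP528 to BRP543. In BRP564 to BRP572 they held 13.9, 31.0 and 64.3, so that the runs overlapped between 43.6 and 64.3. In F, 7 of 8 columns held 0 to 10.4 CPM, which was 0 to 22 counts, and F2 alone held 365 CPM, or 2023 counts. The median of F was 0.242, or 0.115 without F12, and F1 and F16 were at 0, which allows 0.202 and 3.58 CPM.

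Nlgn2 exons followed the same order of runs at lower CPM, with overlap. The values were 2.74, 45.1 and 82.8 exonic CPM in BRP528 to BRP543, and 3.47, 6.04 and 23.0 in BRP564 to BRP572. The overlap came from BRP528, BRP529 and BRP534, which held 2.74, 8.68 and 9.12. The F columns held 0, 2.64 and 82.7 (median 0.581 without F12), and only F1, F11 and F12 exceeded 10 CPM, F11 and F12 with 82.7 and 81.6.

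Nlgn3 was the scarcest member and was carried by few cells. Of its 1258 exonic counts, 619 were in BRP528, which is 49.2%, and 383 were in F1. These correspond to 30.8 and 25.8 CPM, while the other 26 columns held 0 to 1.94. An exonic count was found in 11 of 12, 4 of 8 and 3 of 8 cells of the 3 runs. After each cell was thinned to 830000 exonic counts, these became 3, 1 and 2, so that 12 of the 18 detections were lost. BRP528 and F1 were also the 2 columns in which Nlgn3 made up 29.0% and 28.1% of the summed per kb level of the neuroligins. They held the highest sums of GABAergic neuron markers of their runs, 2734 and 11672 CPM, whose part in these values was not tested.

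The makeup of the neuroligins by length differed less between the BRP runs than the level did. Nlgn1 made up 37.7% to 89.6% of the summed per kb level in BRP528 to BRP543 (median 57.8%) and 42.9% to 83.2% in BRP564 to BRP572 (median 62.8%), ranges that overlapped almost entirely. In F, 5 columns had at least 10 neuroligin counts, and they fell to 2 sides. F2 and F24 held 97.0% and 90.5% Nlgn1, the latter from 23 counts, and F1, F11 and F12 held 71.9%, 99.3% and 99.8% Nlgn2. Without F12 the 2 sides had 2 columns each.

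**Figure D2:**
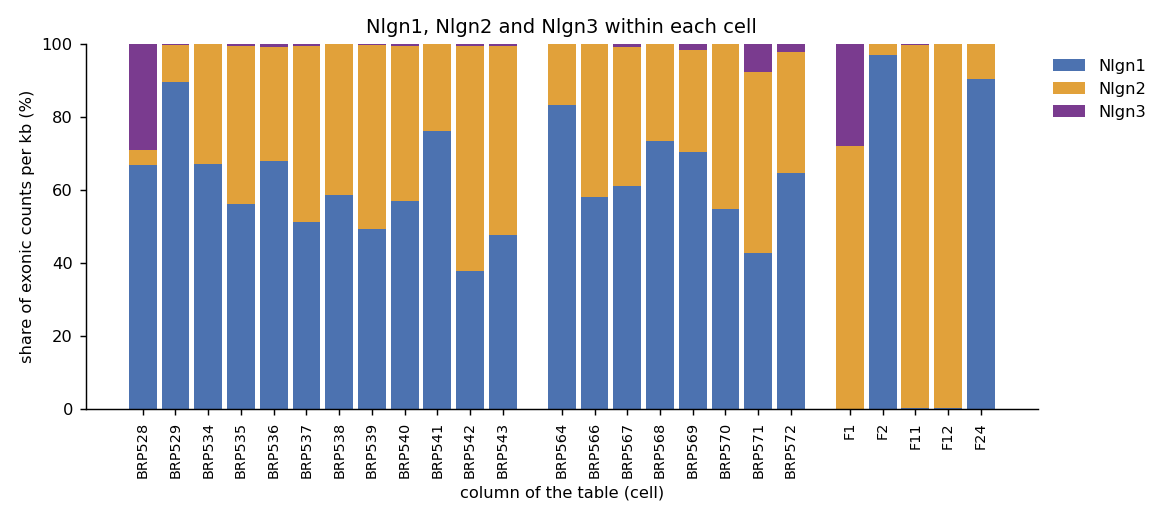
Share of the summed exonic counts per kb of Nlgn1, Nlgn2 and Nlgn3 that each gene made up (vertical axis, percent), 1 bar per cell, for the 25 cells with at least 10 neuroligin counts, with gaps between the runs of codes. Nlgn1 and Nlgn2 were mixed in all 20 BRP cells, Nlgn3 was visible chiefly in BRP528 and F1, and F2 and F24 were nearly all Nlgn1 while F11 and F12 were nearly all Nlgn2.

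By the median over all 28 cells, the order of exonic CPM and kb was Nrxn3 (40.3), Nrxn2 (16.9), Nlgn1 (3.40), Nlgn2 (1.64) and Nlgn3 (0.0361). The order was the same in BRP528 to BRP543 alone, but not in the other runs. In BRP564 to BRP572 the medians were Nrxn2 (10.8), Nlgn1 (2.31), Nlgn2 (1.04), Nrxn3 (0.925) and Nlgn3 (0.0166). In F they were Nrxn3 (53.9), Nlgn2 (0.456), Nrxn2 (0.158), Nlgn1 (0.0180) and Nlgn3 (0), and without F12 Nrxn2 (0.181) came before Nlgn2 (0.1005). All neighbours in the pooled order overlapped in their ranges over cells, and the first place went to Nrxn2 in 17 cells and to Nrxn3 in 11. A neuroligin was the highest of the 5 genes in 0 of 28 cells.

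Intronic counts set the long genes apart from the short ones. Nrxn3 had 1907631 intronic counts over the 28 cells and Nlgn1 had 322710, while Nrxn2 had 28640, Nlgn2 had 290 and Nlgn3 had 77. The Nrxn3 sum was 2.10 times that of Dlg2 (908494), the next protein-coding gene, which encodes a postsynaptic scaffold protein. Nlgn1 ranked 21st of 18396 protein-coding genes, next to Pcdh9 (323874) and Cadm2 (322581), and Nrxn2 ranked 576th. Per kb of intron the 5 genes kept this order. Nrxn3 held 1193 counts per kb, Nlgn1 361, Nrxn2 257, Nlgn2 32.7 and Nlgn3 4.39, with a median of 24.2 over the 16967 genes with an intron and an intronic count. Among those genes Nrxn3 went from percentile 100 by sum to 99.1 per kb, Nlgn1 from 99.9 to 95.2, Nrxn2 from 96.6 to 92.7 and Nlgn3 from 28.2 to 23.9, while Nlgn2 went from 41.6 to 56.1.

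**Figure D3:**
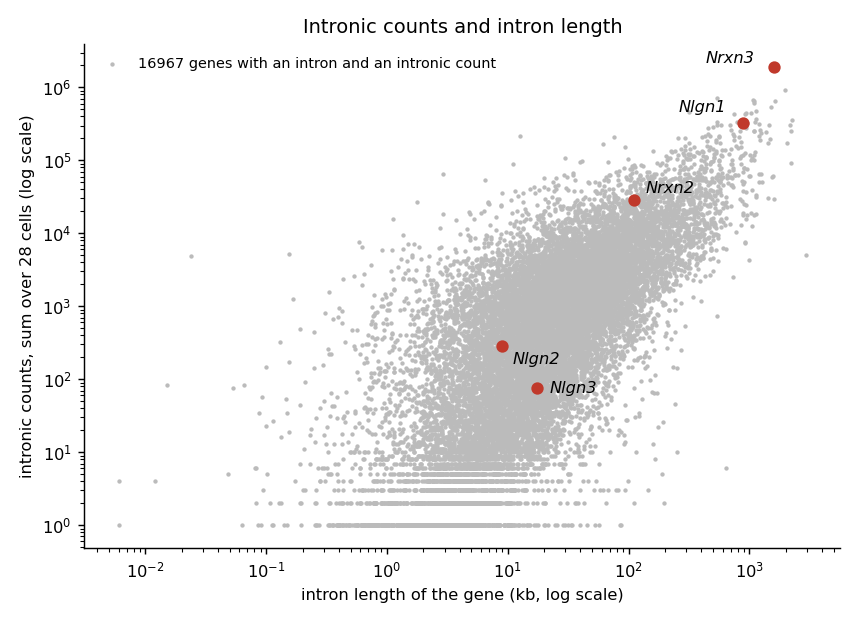
Sum of intronic counts over the 28 cells (vertical axis, logarithmic) against the intron length of the gene in kb (horizontal axis, logarithmic), 1 grey point for each of 16967 genes and red points for the 5 genes. Nrxn3 lies at the top with 1907631 counts over 1599 kb, Nlgn1 follows with 322710 over 893 kb, and Nlgn2 and Nlgn3 lie in the lower middle of the cloud.

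By cell, Nrxn3 introns were abundant also where its exons were scarce. The lowest, median and highest cells held 2182, 6715 and 27375 intronic CPM in BRP528 to BRP543, 907, 3229 and 11332 in BRP564 to BRP572, and 102, 19784 and 69662 in F (median 20301 without F12). These ranges overlapped, unlike the exonic ones of the BRP runs. Every one of the 28 cells had intronic counts of Nrxn3, at least 85. Its share of all intronic counts was 1.77% over the cells pooled and ran from 0.0102% in F1 to 6.97% in F24. It was the first protein-coding gene by intronic count in 6 cells, among the first 10 in 19 cells, and 261st in F1, the column with the lowest intronic share of all counts (5.31%).

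Nlgn1 introns were likewise found in all 28 cells. They held 994, 2316 and 6939 intronic CPM in BRP528 to BRP543, 600.2, 1882 and 3226 in BRP564 to BRP572, and 19.8, 363 and 4329 in F (median 390.4 without F12). Nrxn2 introns held 20.4, 282 and 758, then 17.7, 51.1 and 282, and in F 0, 2.88 and 315 (median 0.951 without F12), where only F6 exceeded 10. Of the 5 members, 0 had intronic levels that were all lower in BRP564 to BRP572 than in BRP528 to BRP543, beside 0.0355% of the 16903 genes with an intronic count there.

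The introns of Nlgn2 and Nlgn3 were close to the limit of detection. Nlgn2 had an intronic count in 8 of 28 cells, and 257 of its 290 counts, or 88.6%, were in F7, where its exons had 0 counts. Leaving out F7 lowered the pooled intronic share of Nlgn2 from 2.06% to 0.239%. Nlgn3 had an intronic count in 9 cells, and 46 of its 77 counts, or 59.7%, were in BRP536. Its pooled intronic share of 5.77% became 2.46% without BRP536 and 10.8% without BRP528.

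**Figure D4:**
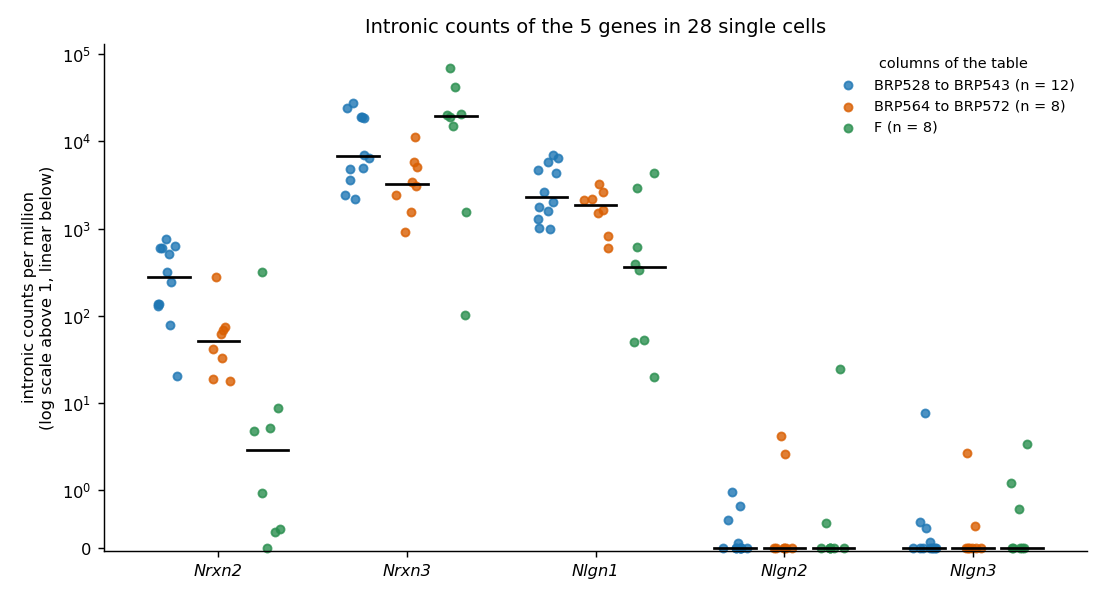
Intronic CPM of the cell's intronic total (vertical axis, logarithmic above 1 and linear below) of the 5 genes, 1 point per cell, coloured by run of column codes, with a black bar at the median of the run. Nrxn3 and Nlgn1 were above 10 in all 28 cells, while Nlgn2 and Nlgn3 were at 0 in most cells.

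Intronic and exonic counts of the same gene were then set side by side. Over the pooled counts, 87.5% of Nrxn3 and 87.1% of Nlgn1 counts were intronic, against 10.7% of Nrxn2, 5.77% of Nlgn3 and 2.06% of Nlgn2. The exact 95% binomial intervals, which cover counting error only, were 87.4% to 87.5%, 87.0% to 87.3%, 10.6% to 10.8%, 4.58% to 7.16% and 1.84% to 2.31%. Cells varied far more than these intervals. Nrxn3 was 18.3% to 96.1% intronic in BRP528 to BRP543 (median 64.2%) and 73.5% to 100% in BRP564 to BRP572 (median 98.0%). In F it was 1.16% to 100% (median 95.6%, or 96.3% without F12), with F1 the low end.

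The cells with few Nrxn3 exons still had many Nrxn3 intron counts. BRP569 had 0 exonic and 1358 intronic counts, BRP572 had 14 and 4657, and BRP568 had 29 and 13423. F16 had 1 and 2210. F7 had 3 and 213474, the fourth highest intronic count of any cell. In these 5 cells the counts per kb were higher in intron than in exon (0.5 added to the exonic count), and in the other 23 they were lower. Nlgn1 introns were denser than its exons in 7 of 8 F columns, the exception being F2, and in 0 of 20 BRP columns. Of these 7, F1 had 0 exonic and 41 intronic counts, F16 had 0 and 74, and F7 had 1 and 208. The place of these columns therefore rests on few counts and on the added 0.5. In F6, Nlgn1 had 1 exonic count and 19957 intronic counts.

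**Figure D5:**
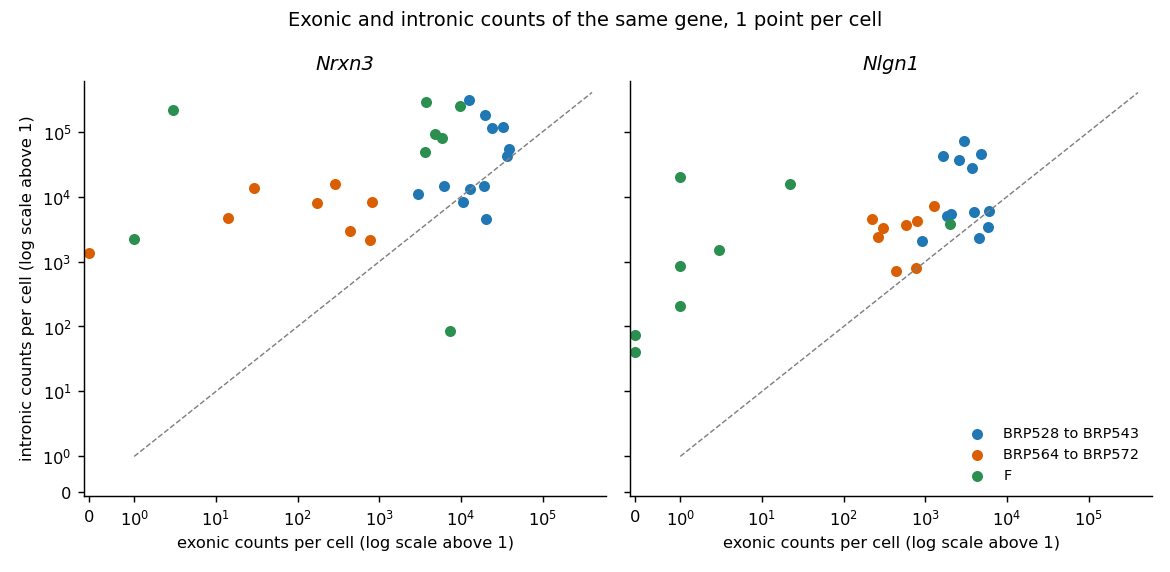
Intronic counts (vertical axis) against exonic counts (horizontal axis) of Nrxn3 (left) and Nlgn1 (right), 1 point per cell, both axes logarithmic above 1, with a dashed line where both counts are equal. Nrxn3 points of BRP564 to BRP572 reach down to 0 exonic counts while their intronic counts stay at 1358 or more, and Nlgn1 points of F lie at 0 to 22 exonic counts in 7 of 8 columns.

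Other genes with long introns give the scale for these shares. Among genes with at least 100 kb of intron and at least 10 counts in the cell, the median intronic share was 23.9% to 84.8% in cells of BRP528 to BRP543, 23.9% to 80.3% in BRP564 to BRP572 and 8.45% to 100% in F. Nrxn3 lay at a median percentile of 53.7 among them in BRP528 to BRP543, of 76.7 in BRP564 to BRP572 and of 33.2 in F (37.4 without F12). A share near 100% was therefore usual for a gene of this kind in F, while in BRP564 to BRP572 it placed Nrxn3 among the upper part of these genes in every cell (percentile 62.6 to 100). Nlgn1 lay at median percentiles of 57.7, 65.6 and 43.0 (45.3 in F without F12). Nrxn2 lay low in each run, at 21.2, 18.0 and 12.8 (14.4 in F without F12). It thus had more exonic counts for its intronic counts than most genes with at least 100 kb of intron. These shares were not divided by length, and the genes were not matched for it. Nrxn2, with 112 kb of intron, lies near the limit of 100 kb, while Nrxn3 has 1599 kb. The part of length in these percentiles was not tested.

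The annotation places 13 other genes across the members. Slc22a12, a urate transporter gene on the opposite strand inside Nrxn2, had 15 exonic and 4 intronic counts over all cells. It was the only one of the 13 that the tables list. The others include 5 in Nrxn3 and 4 in Nlgn1, and reads from them cannot be told apart from intronic reads of the member. The kit of the cultured cells does not mark strand.

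The partners of neurexins and neuroligins were read from a list of 53 genes, all present in the exonic table. The median level was higher in BRP528 to BRP543 than in BRP564 to BRP572 for 41 of 53 (77.4%), beside 26.2% of all genes with an exonic count. Among genes with at least 10 counts in at least 14 cells, it was 31 of 37 partners beside 45.2% of 8542 genes. For 10 of 53 all 12 cells of BRP528 to BRP543 lay above all 8 of BRP564 to BRP572, beside 2.18% of the 18909 genes with an exonic count in these columns. For 0 of 53 they lay all below, beside 2.78% of those genes. The shares of single lists that follow have these same backgrounds, 26.2% for the higher median and 2.18% for no overlap. The 26.2% includes genes without a count in these runs, and was 45.2% under the limit of 10 counts in 14 cells. The single lists were not filtered by that limit, and no background under it was computed for no overlap.

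Of the 24 ligands and co-receptors of neurexin, 17 had the higher median in BRP528 to BRP543, and 1, Clstn3, did not overlap. Clstn3, which encodes a postsynaptic adhesion protein of the calsyntenin family, held 13.6 to 108 exonic CPM there, 0 to 6.17 in BRP564 to BRP572 and 0 to 278 in F. Lrrtm1, which encodes a leucine-rich postsynaptic partner of neurexin, had medians of 124, 0.0272 and 0 in BRP528 to BRP543, BRP564 to BRP572 and F, and Cbln4, which encodes a secreted ligand, had medians of 76.9, 0 and 0. Dag1, which encodes dystroglycan, went the other way, with medians of 177, 349 and 0.0674 (0 in F without F12), and its BRP ranges overlapped.

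All 12 postsynaptic scaffold genes had the higher median in BRP528 to BRP543, and 4 (Dlg2, Shank1, Dlgap1 and Gphn) did not overlap. Dlgap1, which encodes a protein that links PSD-95 to Shank proteins, held 517 to 2123 in BRP528 to BRP543, 3.21 to 137 in BRP564 to BRP572 and 0 to 4536 in F. Gphn, which encodes gephyrin, the scaffold of inhibitory synapses, held 47.6 to 386, 3.72 to 23.5 and 0 to 322. Of 6 presynaptic scaffold genes, 4 had the higher median there and Apba1, Lin7a and Lin7b did not overlap, while Cask, whose protein binds the neurexin tail, had like medians of 109 and 123.

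Both blockers of the contact between neurexins and neuroligins had the higher median in BRP528 to BRP543 with overlap, and for Mdga2 the medians were 90.1, 51.7 and 0.417 (0.473 in F without F12). Of 9 splicing regulators 6 had the higher median and Rbfox1 and Rbfox2 did not overlap. Rbfox1 held 89.0 to 1251 in BRP528 to BRP543, 0 to 5.00 in BRP564 to BRP572 and 0.369 to 10989 in F. Ptbp1, which encodes a repressor of neuronal exons, had the lower median there, at 0.647 against 8.85. Markers of neurons differed between these runs in the same direction, as given above, and their part in the partner counts was not tested.

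The genes most like each member were found by Spearman's rho of log2(exonic CPM + 1) over the 28 cells, among 8542 genes with at least 10 counts in at least 14 cells. For Nrxn2 they were Bai1 (0.887), Emc10 (0.882) and Pld3 (0.850), for Nrxn3 Tppp (0.795), Tacc1 (0.788) and Ank3 (0.766), and for Nlgn1 Pcnx (0.912), Kctd3 (0.908) and AI414108 (0.896). For Nlgn2 they were Npdc1 (0.888), Sept6 (0.840) and Lgi1 (0.832). Nlgn3 did not itself pass the count limit, and its nearest genes were Slitrk4 (0.772), Osbpl6 (0.747) and Dnajc18 (0.728). The 28 points share runs of codes and depth, and with the 20 BRP columns alone 0 of these 15 genes remained among the first 3 of their member.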

How the data were processed

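RNA of 28 single cells was measured, 1 library per cell. The authors deposited raw counts per gene and cell, in 1 table for exons and 1 for introns. The submitters' processing notes name STAR 2.4.0, bcl2fastq 2.17 and mm10. The counting tool, annotation and strand setting are not given in the sources used here. All 28 columns were used, without assignment to samples. Counts were divided by the column total of their table and multiplied by 1000000 (CPM). The 5 members, the 53 partner genes and the marker lists were chosen with earlier results of these data known. The rule for named genes took the members, the partner list, genes overlapping a member, the neighbours of a member by intronic sum, and the 3 genes most like each member. Lengths and coordinates came from GENCODE M21 on GRCm38, matched by symbol for 98.4% of exonic and 98.7% of intronic genes; introns were the span without any exon. Adgrl1, Adgrl2 and Adgrl3 were read under their older symbols. As all columns were of unknown cell type, no differential test was run. Python 3.11.15, pandas 2.3.3, numpy 2.4.6 and scipy 1.17.1 were used, with R 4.3.3, edgeR 4.0.16 and DESeq2 1.42.0 for other scaling factors only. The likeness step was tested on simulated exonic counts, where 199 of 199 other genes given a shared pattern were ranked first among 13422. The pattern was strong and was planted only in genes with more counts than Nlgn2 and Nlgn3 had, so recovery was near certain. The check covers the ranking step alone and lends no weight to the genes named above. Alternatives were other scalings, length measures, count limits, thinning and leaving out columns. No protein or promoter sequence was used. 1 gene of the partner list is not reported here.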

Additional observations from a re-analysis of the deposited data

How the results depend on the processing

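With edgeR TMM factors, DESeq2 size factors, a total without genes that have no intron, the joint total of both tables, or F11 and F12 counted as 1 (the last 2 chosen after the data were seen), the median level of each member moved by less than 1 SD over cells in both tables, but that SD was large and some medians moved by over 1.5 times. With the joint total, whose intronic values are smaller by construction, intronic Nrxn3 went from 6129 to 725 CPM, Nlgn1 from 1696 to 209.6 and Nrxn2 from 71.2 to 7.28, and exonic Nlgn3 from 0.335 to 0.223. With TMM factors intronic Nrxn2 became 33.99, intronic Nlgn1 1031 and exonic Nlgn3 0.220, and with DESeq2 size factors intronic Nrxn2 became 34.1, exonic Nlgn1 28.7 and exonic Nlgn3 0.175. The BRP runs did not overlap in Nrxn3 exons under any of these scalings, and overlapped in Nrxn2 exons with the joint total alone (a check also chosen after the data were seen). The order of the 5 genes by the median over all cells was the same with the longest transcript as length and without division by length. The orders within single runs were not recomputed with the longest transcript. In BRP564 to BRP572, the median of Nrxn3 without division by length (11.7 CPM) lay above that of Nlgn2 (6.04 CPM). Per kb of exon the order of these medians was the reverse. No paired analysis was possible because the columns carry no replicate numbers and no sample.

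The share of Nrxn3 in all intronic counts (1.77%) was 0.613% as a median of per-cell shares, 2.10% without genes that have no intron, 2.72% in F columns alone and 1.30% in BRP columns alone, and 1.59% to 1.84% when 1 column was left out. The intronic share of the members' counts, when 1 column was left out, was 8.81% to 11.6% for Nrxn2, 85.8% to 88.8% for Nrxn3, 84.9% to 88.4% for Nlgn1, 0.239% to 2.399% for Nlgn2 (lowest without F7) and 2.46% to 10.8% for Nlgn3 (lowest without BRP536, highest without BRP528). As a median over cells with at least 10 counts it was 5.75%, 90.5%, 89.2%, 0% and 0% in the same order. In F columns alone it was 22.6% for Nrxn2, 96.5% for Nrxn3, 95.3% for Nlgn1 and 17.4% for Nlgn2, and in BRP columns alone 79.7% for Nrxn3 and 0.239% for Nlgn2.

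Percentiles moved by over 5 points chiefly for the scarce members. Among genes with at least 10 intronic counts, Nlgn2 was at 33.6 by count and 50.2 per kb, and Nlgn3 at 18.5 and 14.5. By the mean of CPM, Nlgn2 was at 31.2 and 37.9, and Nrxn2 per kb at 87.0. With at least 10 counts required, Nlgn3 exons were found in 11 cells, Nlgn2 introns in 1 and Nlgn3 introns in 2. Thinned to 830000 counts per cell, these were 6, 5 and 4 cells. Of the 3 genes most like a member, Pearson's r with a pseudocount of 0.1 kept 1 for Nrxn2, Nlgn1 and Nlgn3 and 0 for Nrxn3 and Nlgn2, and the BRP columns alone kept 0 for each.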

Other observations

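The F columns differed from each other in which members they held, and their values are given here by column, with no cell type assigned. F1 held exons of Nrxn3 (7250 counts), Nrxn2 (1965), Nlgn2 (613) and Nlgn3 (383) and 0 of Nlgn1, and few introns of any member (85 of Nrxn3 and 41 of Nlgn1). F2 held exons of Nrxn3 (4815) and Nlgn1 (2023), 26 of Nlgn2, 2 of Nlgn3 and 0 of Nrxn2. F6 held exons of Nrxn2 (5305) and Nrxn3 (3718) and fewer than 10 of each neuroligin. F24 held Nrxn3 exons (9616), 0 of Nrxn2, 22 of Nlgn1 and 1 of Nlgn2. F7 and F16 held almost no exons of the 5 genes except 313 counts of Nrxn2 in F16, the shallowest column at 838343 exonic counts. These 2 columns also held the highest sums of some markers in F. F16 held 2093 CPM of microglia markers, and F7 held 4363 CPM of astrocyte and 3387 CPM of oligodendrocyte lineage markers. Both held neuron markers as well, 16638 CPM in F16 and 3163 in F7. Their GABAergic neuron markers summed to 4825 and 1136 CPM. The part of these markers in the values of the members was not tested. F11 and F12, which were nearly alike over all genes, held 5864 and 3596 Nrxn3 and 363 and 221 Nlgn2 exonic counts and at most 11 of any other member.

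In BRP528 to BRP543, the cell with the most intronic counts of Nrxn3 was not the cell with the most exonic counts. BRP540 held 303838 intronic and 12348 exonic counts, and BRP535 held 54873 intronic and 38830 exonic counts. BRP539 and BRP536 were high in both, with 119128 and 113009 intronic and 32253 and 23981 exonic counts. BRP534, with 20091 exonic counts, had 4492 intronic counts, the fewest of the run. BRP540 was also the column of this run with the largest share of intronic counts over all genes (38.8%), and BRP534 that with the smallest (8.91%).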
